A study of Mus musculus with 5 samples.

Results

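The 10 genes described here restrain MAP kinase signalling, and their transcripts were measured in sorted mouse lymphocytes. They are the MAP kinase phosphatase genes Dusp1, Dusp2, Dusp4, Dusp5, Dusp6 and Dusp10, the Sprouty genes Spry1 and Spry2, and the SPRED genes Spred1 and Spred2. They were taken by name from the count table, and all 10 were found among its 27179 gene identifiers. The study sequenced RNA of 3 libraries of group 3 innate lymphoid cells (ILC3) and 2 libraries labelled CD4 T. Both groups came from wild type mice of strain C57BL/6, 3 mice in all, and the labels give no treatment, age or tissue, although the title of the study names the intestine. ILC3 were gated on CD45 and CD127, without CD3, and on green fluorescence reporting RORγt, and CD4 T were gated on CD45, CD3 and CD4. The labels give no tie between a replicate number and a mouse, so each p-value measures the spread between these libraries, which may be partly technical.

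MAP kinases are activated when a dual-specificity kinase phosphorylates a threonine and a tyrosine in their activation loop. The MAP kinase phosphatases remove both phosphates with a single catalytic cysteine, and many of their genes are themselves switched on by the pathway, so that they act as feedback. Sprouty and SPRED proteins act further up: Sprouty proteins bind adaptors such as GRB2 and the ubiquitin ligase CBL, and SPRED proteins bring neurofibromin, which switches RAS off, to the membrane. In lymphocytes the ERK, p38 and JNK branches carry signals of antigen receptors, cytokines and stress.

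The catalytic loop is what the 6 phosphatase genes share and the Sprouty and SPRED genes lack, and it is shown here as coding sequence. In GENCODE release M21 (GRCm38) transcripts, codons spelling a histidine and a cysteine, with a glycine and an arginine at the spacing of this enzyme class, occurred once in each Dusp coding sequence and 0 times in Spry1, Spry2, Spred1 and Spred2. Each stretch holds 30 bases, and the capitals mark the codon of the catalytic cysteine.
Dusp1: gttcatTGCcaggccggcatctcccggtca
Dusp2: gtgcacTGCcaagctggcatctctcgctca
Dusp4: gttcacTGCcaggccggcatctcccgatca
Dusp5: gtccacTGCgaagctggggtttcccggtcg
Dusp6: gtgcatTGCttggcaggtatcagccgctct
Dusp10: atccacTGCcaggccggcgtgtcccgatcc
Dusp1 and Dusp4 were equal at 28 of these 30 bases, the closest pair, and Dusp6 was equal to Dusp5 and to Dusp10 at 17. Over whole transcripts the longest exact run that any pair of the 10 genes had in common was 21 bases, between Dusp1 and Dusp4. Read lengths are not stated in the labels.

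Of the 10 genes, 2 passed the test for a difference between the cell types. Spry2 was about 70.2-fold higher in ILC3 by mean CPM, the count scaled to the size of its library, and Dusp2 was about 36.0-fold lower. Dusp1 and Dusp5 were also above every CD4 T library in each ILC3 library, and Dusp4, Dusp10 and Spred1 below, but none of these 5 passed the test. Dusp6, Spry1 and Spred2 overlapped between the groups. Differences were tested with the quasi-likelihood test of edgeR, adjusted by Benjamini-Hochberg over 12747 genes and called at an adjusted p under 0.05. Calls were made for 13.7% of all tested genes, 6.46% higher and 7.21% lower in ILC3, against 1 higher and 1 lower of 10 here. With library size alone in place of TMM scaling, 20.4% of all calls were higher in ILC3, against 47.3% with it. Groups that did not overlap were found for 7 of the 10 genes and for 55% of all tested genes. The median log2 fold change was 0.22 over the 10 genes and -0.10 over all tested genes.

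**Figure D1:**
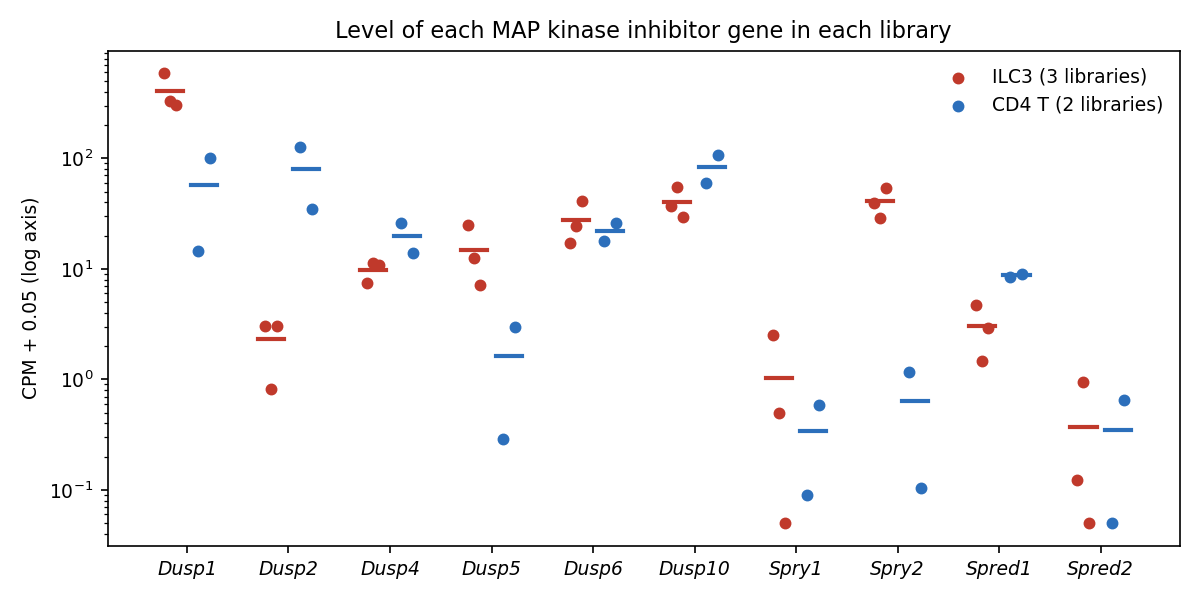
CPM plus 0.05 on a log axis for each of the 10 genes, where points are the 3 ILC3 and 2 CD4 T libraries and short bars are group means. Spry2 lies at 28.9 CPM or more in ILC3 and at 1.11 CPM or less in CD4 T, and Dusp2 lies the other way, at 2.99 CPM or less in ILC3 and 35.035 CPM or more in CD4 T.

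The libraries differed in depth and content. Depth was 20905412 to 25956023 counts in ILC3 and 15123715 to 20165672 counts in CD4 T, and a count of 0 allows up to 3 counts, 0.116 to 0.198 CPM before scaling. Antigen receptor segment genes took 6.55% to 29.8% of the counts in ILC3 and 10.2% to 16.99% in CD4 T. Of 9 ILC3 markers, 8 were called higher in ILC3 and 0 lower. The 9 summed to 25140 to 27490 CPM in ILC3 and 429 to 613 CPM in CD4 T. Il22 alone was at 19468 to 21493 CPM in ILC3. The marker without a call, Ahr, went the other way in every library. It was at 41.2, 47.9 and 55.4 CPM in ILC3 and 101 and 73.9 CPM in CD4 T (log2 -0.86, edgeR adjusted p = 0.092). Of 9 T cell markers, 6 were lower in ILC3 and 0 higher (274 to 721 CPM in ILC3, 1690 to 3268 CPM in CD4 T, with Cd6 at 0 in ILC3). These 9 include Cd8a and Cd8b1, markers of CD8 T cells, which a CD4 gate does not select. Cd8a was at 0.0361, 0 and 0.0585 CPM in ILC3 and 245 and 189 CPM in CD4 T, and Cd8b1 was at 1.19, 0 and 0.0585 CPM in ILC3 and 336 and 433 CPM in CD4 T. Both were above Cd4 itself in each CD4 T library, in CPM not divided by gene length. Cd4 was at 6.28, 2.82 and 6.08 CPM in ILC3 and 142 and 90.1 CPM in CD4 T. Cd3g, a chain of the CD3 complex that the ILC3 gate leaves out, was at 362, 470 and 161 CPM in ILC3 and 280 and 1310 CPM in CD4 T (log2 -1.26, edgeR adjusted p = 0.254). Its sign turned without CD4 T replicate 2 (0.26). The 7 plasmacytoid dendritic cell markers summed to 180 to 247 CPM in ILC3 and 2016 and 2919 CPM in CD4 T, and 6 of them were lower in ILC3 and 0 higher. Siglech, a receptor of those cells, was at most 0.234 CPM in ILC3 and 745 and 814 CPM in CD4 T. For 10 markers of macrophages or conventional dendritic cells the sums were 154 to 205 CPM in ILC3 and 1532 and 2223 CPM in CD4 T, with 9 lower and 1 higher in ILC3 and Clec10a and Cd33 at 0 in ILC3. The 9 B or plasma cell markers summed to 18180 to 101000 CPM in ILC3 and 21440 and 34740 CPM in CD4 T with no call, led by Jchain, and Pax5 was at 0 in both groups. The 8 epithelial markers summed to 7.58 to 14.9 CPM in ILC3 and 24.2 and 63.4 CPM in CD4 T. Only 2 of the 8 could be tested, with no call, and Krt8, Krt20 and Cdh1 were at 0 in ILC3. The 8 stromal or endothelial markers summed to 37.9 to 46.7 CPM in ILC3 and 22.9 and 35.04 CPM in CD4 T. Only 3 of these 8 could be tested, with 1 higher in ILC3 and 0 lower. The part of these other cells in any difference below was not tested, and in such bulk samples fewer cells of a type and less RNA per cell cannot be told apart.

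Among the nuclear phosphatases, Dusp2 was lower in ILC3, and Dusp1, Dusp4 and Dusp5 did not pass the test. Dusp1 encodes an enzyme that acts on p38, JNK and ERK and is induced by growth factors, stress and glucocorticoids. It stood at 589, 328 and 306 CPM in ILC3 replicates 1 to 3, against 14.5 and 99.7 CPM in CD4 T replicates 1 and 2. Every ILC3 library lay above both CD4 T libraries, and the CD4 T libraries differed from each other 6.89-fold. Its mean level was 408 ± 157 CPM over the ILC3 libraries (SD, n = 3), against 57.1 ± 60.3 CPM over those of CD4 T (SD, n = 2). This log2 difference of 2.84 (SE 0.842) did not pass the threshold of edgeR (adjusted p = 0.0665). Its unadjusted 95% interval was 0.83 to 4.85. Without CD4 T replicate 2, the library with more Dusp1, the estimate became 4.83 and passed (edgeR adjusted p = 0.00959). With that library kept and CD4 T replicate 1 left out, it became 2.04 and missed the threshold (edgeR adjusted p = 0.0908). Across 15 other settings Dusp1 was called in 4, with adjusted p between 0.000612 and 0.142.

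Dusp2 encodes a nuclear phosphatase first known from activated lymphocytes, and its gene lies at chr2:127336159-127338377 (GRCm38). It was at 2.99, 0.769 and 2.98 CPM in ILC3, from 83, 12 and 51 counts, against 127 and 35.035 CPM in CD4 T, from 3197 and 647 counts. All ILC3 libraries lay far below both CD4 T libraries, and Dusp2 had the highest mean level per length of the 10 genes in CD4 T, leading in replicate 1 but not in replicate 2. Mean levels were 2.25 ± 1.28 CPM over the ILC3 libraries (SD, n = 3), against 80.9 ± 64.8 CPM over those of CD4 T (SD, n = 2). In edgeR this log2 difference of -5.15 (SE 0.784) passed (adjusted p = 0.0118). Leaving out CD4 T replicate 1, in which Dusp2 was 3.62 times the level of the other, gave -3.95 and ended the call (edgeR adjusted p = 0.0578). Leaving out the other CD4 T library gave -5.79 (edgeR adjusted p = 0.00905).

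Dusp4, a nuclear relative of Dusp1 that dephosphorylates ERK and JNK, did not pass the test. Its values were 7.32, 11.2 and 10.8 CPM in ILC3 and 25.9 and 13.9 CPM in CD4 T. The groups did not overlap, but the gap between them was smaller than that between the CD4 T libraries. Dusp4 differed by -1.02 in log2 (SE 0.489, edgeR adjusted p = 0.197), with a 95% interval of -2.19 to 0.15.

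Dusp5, a nuclear phosphatase that acts on ERK alone and is induced by it, was at 24.6, 12.6 and 7.07 CPM in ILC3, against 0.238 and 2.92 CPM in CD4 T. The CD4 T values rest on 6 and 54 counts. All ILC3 libraries lay above both CD4 T libraries, and the spread within each group was wide, 3.48-fold in ILC3 and 12.3-fold in CD4 T. The log2 fold change of 3.23 (SE 1.19) did not pass (edgeR adjusted p = 0.111), with a 95% interval of 0.40 to 6.06. The estimate passed at 5.94 once CD4 T replicate 2 was left out (edgeR adjusted p = 0.0328), and was 2.34 with CD4 T replicate 1 left out instead (edgeR adjusted p = 0.231). An antisense transcript of the annotation covers 547 bases, 22.1% of the exon sequence of Dusp5. The strand setting of the counting is not given, so within those bases reads of the 2 cannot be told apart.

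Start regions of these genes were read for motifs of signal-responsive factors. RefSeq gives 300 bases per start on GRCm38.p6, 250 before it and 50 from it on, for 9 of the 10 genes and not for Dusp4. The motifs, searched on both strands, were the cyclic AMP element TGACGTCA and its shorter core site TGACG, the AP-1 site TGACTCA, the ETS site CCGGAAG, the TATA box TATAAA, and the CArG box bound by serum response factor. Core sites inside a full cyclic AMP element were counted too. The windows of Dusp1, Dusp2, Dusp5 and Spry2 are printed because the first 3 showed matches among the inducible nuclear phosphatases and Spry2 and Dusp2 passed the test; capitals mark matches, and Spry2 had none.
Dusp1, chr17:26508423-26508722, minus strand: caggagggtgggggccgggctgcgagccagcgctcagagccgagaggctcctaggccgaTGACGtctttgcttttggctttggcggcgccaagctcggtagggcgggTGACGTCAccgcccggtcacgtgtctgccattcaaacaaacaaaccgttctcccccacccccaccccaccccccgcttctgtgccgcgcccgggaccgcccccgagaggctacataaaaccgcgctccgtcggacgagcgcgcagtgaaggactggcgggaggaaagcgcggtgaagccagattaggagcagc
Dusp2, chr2:127335909-127336208, plus strand: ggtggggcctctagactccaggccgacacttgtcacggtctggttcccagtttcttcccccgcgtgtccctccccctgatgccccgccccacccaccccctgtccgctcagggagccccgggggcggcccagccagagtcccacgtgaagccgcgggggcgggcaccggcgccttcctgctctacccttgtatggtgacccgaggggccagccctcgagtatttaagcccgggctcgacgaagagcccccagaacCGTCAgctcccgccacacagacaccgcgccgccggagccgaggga
Dusp5, chr19:53528895-53529194, plus strand: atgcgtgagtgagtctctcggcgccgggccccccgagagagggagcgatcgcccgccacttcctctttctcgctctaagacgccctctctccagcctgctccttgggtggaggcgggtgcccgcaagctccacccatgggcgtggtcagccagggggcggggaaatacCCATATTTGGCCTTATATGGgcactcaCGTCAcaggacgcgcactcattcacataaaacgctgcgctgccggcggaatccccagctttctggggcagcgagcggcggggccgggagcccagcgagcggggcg
Spry2, chr14:105896770-105897069, minus strand: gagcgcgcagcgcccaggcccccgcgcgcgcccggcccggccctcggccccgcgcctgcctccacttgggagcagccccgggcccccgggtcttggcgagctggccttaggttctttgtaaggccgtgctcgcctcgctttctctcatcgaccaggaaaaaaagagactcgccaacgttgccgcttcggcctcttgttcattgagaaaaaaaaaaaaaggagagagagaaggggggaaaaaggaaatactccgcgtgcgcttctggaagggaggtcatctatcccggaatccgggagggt
The Dusp1 window held the full cyclic AMP element at -143 to -136, counted from the start base as 1, which 1.79% of all 32851 windows hold, and a separate core site at -191 to -187. The Dusp5 window held 2 CArG boxes side by side, at -82 to -73 and at -72 to -63, a motif found in 1.63% of windows, and a core site at -55 to -51. The core site, present in 20.8% of windows, also lay at 6 to 10 in Dusp2 and at -51 to -47 in Spred2. No searched motif was in the windows of Dusp6, Dusp10, Spry1, Spry2 or Spred1. AP-1, ETS and TATA letters, in 5.2%, 8.86% and 13.6% of all windows, were in none of the 9.

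Dusp6, the cytoplasmic phosphatase specific for ERK, overlapped between the cell types. It stood at 17.03, 24.2 and 41.1 CPM in ILC3 and 17.9 and 26.2 CPM in CD4 T, so that the CD4 T values lay within the ILC3 range. Dusp6 differed by 0.32 in log2 (SE 0.473, edgeR adjusted p = 0.691), and its 95% interval of -0.81 to 1.45 holds differences of either sign. The sign turned with library size alone as the scaling (-0.22) and without ILC3 replicate 3 (-0.09).

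Dusp10, which acts on p38 and JNK in cytoplasm and nucleus, was at 37.3, 54.9 and 29.7 CPM in ILC3, against 59.3 and 106 CPM in CD4 T. All ILC3 values were below both CD4 T values, with ILC3 replicate 2 close to CD4 T replicate 1. Mean Dusp10 levels were 40.6 ± 12.9 CPM over the ILC3 libraries (SD, n = 3), against 82.8 ± 33.1 CPM over those of CD4 T (SD, n = 2). Its log2 fold change of -1.03 (SE 0.395) did not pass (edgeR adjusted p = 0.124). With library size alone in place of TMM scaling it was -1.55 and passed (edgeR adjusted p = 0.0475), a scaling under which the median over all tested genes was -0.60 in place of -0.10.

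Spry2 had the highest log2 fold change of the 10 genes. Its gene lies at chr14:105891947-105896819 (GRCm38), and its protein binds GRB2 and CBL and limits RAS and ERK activation downstream of receptor tyrosine kinases. Levels were 39.8, 28.9 and 53.9 CPM in ILC3, from 1102, 451 and 922 counts. In CD4 T they were 1.11 and 0.0542 CPM, from 28 counts and 1 count. The lowest ILC3 library was thus far above both CD4 T libraries, and the lower of these was under the level that 3 counts would give. Spry2 averaged 40.9 ± 12.5 CPM over the ILC3 libraries (SD, n = 3), against 0.582 ± 0.747 CPM over those of CD4 T (SD, n = 2). In edgeR this log2 difference of 6.07 (SE 1.08) passed (adjusted p = 0.018). Its 95% interval was 3.49 to 8.64. The size rests on few CD4 T counts: leaving out CD4 T replicate 2 gave 5.21 (edgeR adjusted p = 0.00896), while leaving out CD4 T replicate 1 gave 9.41 (edgeR adjusted p = 0.00917). Without ILC3 replicate 1 it was 6.08 and the call ended (edgeR adjusted p = 0.0577).

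Spry1, the other Sprouty gene, was near the detection limit. It had 69, 7 and 0 counts in the ILC3 libraries, against 1 and 10 counts in those of CD4 T, or 2.49, 0.448 and 0 CPM in ILC3 and 0.0396 and 0.542 CPM in CD4 T. Most of its ILC3 counts came from replicate 1, and the groups overlapped. Spry1 differed by 1.76 in log2 (SE 2.22, edgeR adjusted p = 0.633), with a 95% interval from -3.54 to 7.05. Leaving out CD4 T replicate 1 gave 0.86 and leaving out CD4 T replicate 2 gave 4.46 in log2, neither of them called. An annotated transcript on the other strand covers 24.4% of its exon sequence, and within that part its reads cannot be told apart from those of Spry1.

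Of the SPRED genes, Spred1 was low and Spred2 was near the detection limit. Spred1 was at 4.62, 1.41 and 2.86 CPM in ILC3 and at 8.44 and 8.88 CPM in CD4 T. Every ILC3 library was below both CD4 T libraries, which lay within 1.05-fold of each other. The log2 fold change was -1.54 (SE 0.769), which did not pass (edgeR adjusted p = 0.214), with a 95% interval of -3.38 to 0.29. Spred2 had 2, 14 and 0 counts in ILC3 and 0 and 11 counts in CD4 T, at most 0.897 CPM, and its interval of -5.37 to 5.59 around an estimate of 0.11 in log2 (edgeR adjusted p = 0.98) spans large changes of either sign.

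**Figure D2:**
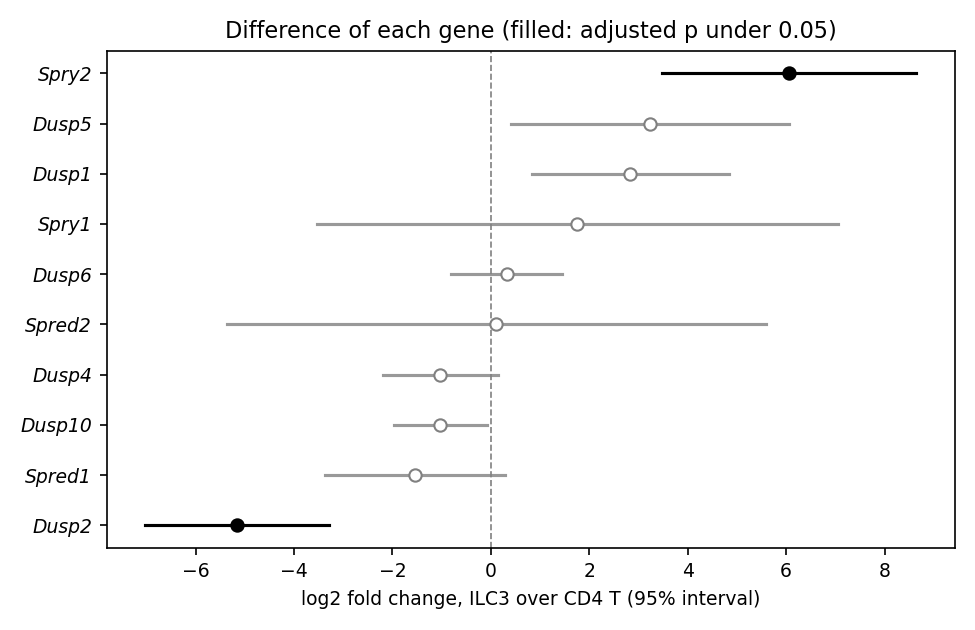
Estimated log2 fold change of ILC3 over CD4 T for each of the 10 genes, with its unadjusted 95% interval as a line and filled points for an adjusted p under 0.05. Spry2 at 6.07 and Dusp2 at -5.15 are the filled points, and the intervals of Spry1 and Spred2 are the widest.

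Levels were compared between genes only after division by length, as CPM per kilobase (kb) of summed exon sequence. In ILC3, Dusp1 led at 123 ± 47.5 CPM per kb (SD, n = 3), apart from the next gene. Spry2 followed at 19.6, then Dusp10 at 13.4, Dusp6 at 8.77, Dusp5 at 5.98 and Dusp4 at 3.57 CPM per kb, and from Spry2 down to Dusp4 each overlapped the next. Dusp2 (1.12), Spred1 (0.437), Spry1 (0.337) and Spred2 (0.0699 CPM per kb) lay below Dusp4 in every ILC3 library and overlapped one another in that order. In CD4 T, Dusp2 was first at 40.4 ± 32.4 CPM per kb (SD, n = 2), followed by Dusp10 at 27.2, Dusp1 at 17.3, Dusp4 at 7.25 and Dusp6 at 7.03 CPM per kb, each overlapping the next. Spred1 at 1.28 and Dusp5 at 0.639 CPM per kb were apart from their upper neighbours, and Spry2 (0.279), Spry1 (0.100) and Spred2 (0.0645 CPM per kb) closed the order. With the length of the longest coding transcript in its place, a choice made after seeing the data, Dusp6 came before Dusp4 in CD4 T and no other place changed.

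The make-up of the 10 transcripts differed accordingly. Dusp1 took 77.2%, 66.6% and 61.7% of the summed CPM per kb in the ILC3 libraries, against 4.19% and 30.5% in the CD4 T libraries. Dusp2 took at most 0.992% in ILC3, and 60.7% and 17.7% in CD4 T. The CD4 T libraries thus did not share a leading gene, since Dusp10 at 35.3% was first in replicate 2. Sprouty and SPRED genes together took 8.95%, 9.68% and 17.5% in ILC3, against 1.72% and 1.67% in CD4 T, and Spry2 made up 92.5% to 98.4% of that sum in ILC3 and 29.7% and 1.57% in CD4 T. Within a library, the ratio of Dusp1 to Dusp2 per kb was 119, 258 and 62.2 in ILC3, against 0.0691 and 1.72 in CD4 T. That of Spry2 to Spred1 was 28.0, 66.6 and 61.2 in ILC3, against 0.427 and 0.0198 in CD4 T. Such ratios do not depend on the scaling of the libraries, and neither overlapped between the groups. The shares and ratios repeat the levels above and were not tested.

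**Figure D3:**
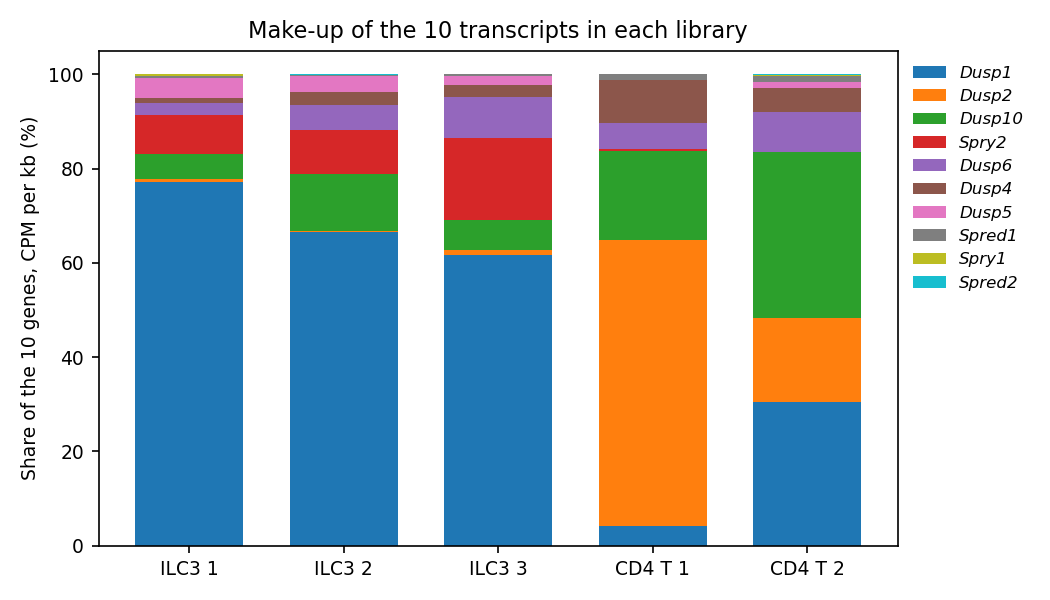
Share of each gene in the summed CPM per kb of the 10 genes, stacked to 100% for each of the 3 ILC3 and the 2 CD4 T libraries. Dusp1 fills 61.7% or more of each ILC3 bar. In CD4 T, Dusp2 is the largest part of replicate 1 at 60.7%. In CD4 T replicate 2 the largest are Dusp10 at 35.3% and Dusp1 at 30.5%, ahead of Dusp2 at 17.7%.

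The spread between libraries of one group was also measured. The CD4 T libraries differed by a median of 1.04 on the log2 scale (CPM plus 0.5) over the 10 genes, against 0.72 over all tested genes, and by more than 1 for 5 of the 10 and 36.3% of all. Those 5 were Dusp1, Dusp2, Dusp5, Spry2 and Spred2, the last near the detection limit. Over all 10 genes, Dusp2, Dusp4 and Spry2 were higher in CD4 T replicate 1, and the others in replicate 2. In ILC3 the median SD of log2 CPM was 0.67 over the 10 genes and 0.43 over all. Dusp1 and Dusp5 were highest in ILC3 replicate 1, Dusp6 and Spry2 in replicate 3, and Dusp10 in replicate 2.

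**Figure D4:**
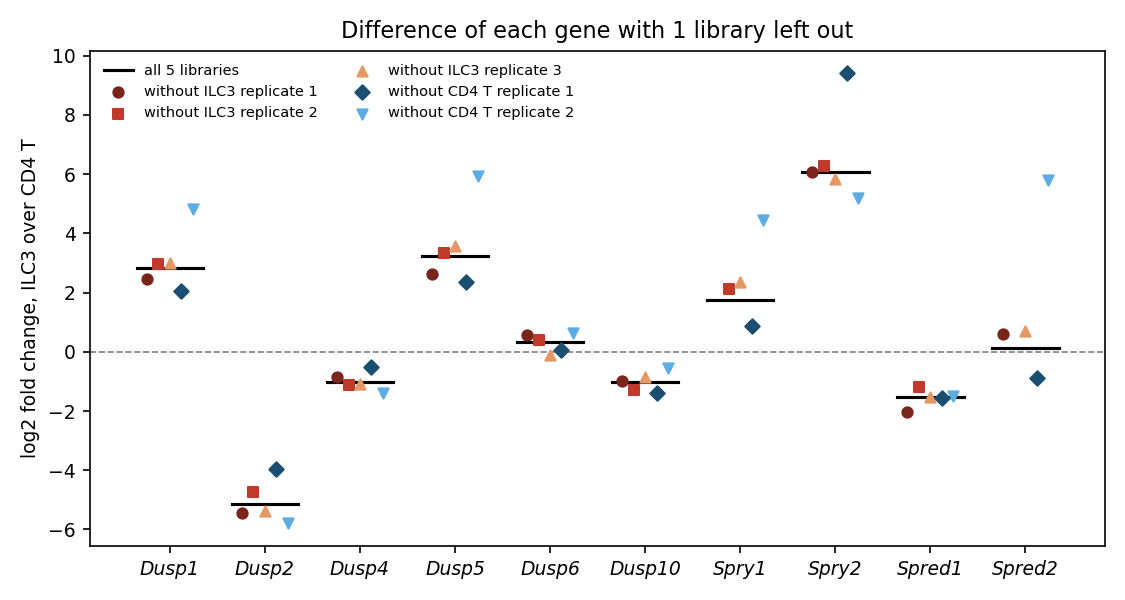
Fitted log2 fold change of ILC3 over CD4 T for each gene from all 5 libraries (line) and with 1 library left out (symbols). Spry2 moves to 9.41 without CD4 T replicate 1, and Dusp1, Dusp5 and Spry1 move to 4.83, 5.94 and 4.46 without CD4 T replicate 2, while Spred2 has no measured size without CD4 T replicate 2 because the remaining library is at 0, and a missing symbol is a gene that the filter on low counts removed.

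The other genes of the same families did not pass the test. Of 7 further MAP kinase phosphatase, Sprouty and SPRED genes, 4 could be tested and 0 were called. With the same test at an unadjusted p under 0.05 the count was 0, and in the DESeq2 Wald test it was 0 at either threshold. Dusp16, a phosphatase of JNK and p38, stood at 22.9, 23.3 and 40.04 CPM in ILC3 and 37.1 and 39.9 CPM in CD4 T (log2 -0.42, edgeR adjusted p = 0.471). Dusp8, of like specificity, was at 4.27 to 5.77 CPM in ILC3 and 3.73 and 2.49 CPM in CD4 T (log2 0.68, edgeR adjusted p = 0.587). Spry3, one of the 3 that could not be tested, had no count in any library. A further list held atypical dual-specificity phosphatases, which lack the MAP kinase binding domain, and the slingshot phosphatases Ssh1 and Ssh2. Of its 13 tested genes, 1 was higher in ILC3 and 0 lower. Dusp12 was at 89.9, 82.8 and 87.5 CPM in ILC3 and 11.7 and 21.8 CPM in CD4 T (log2 2.38, edgeR adjusted p = 0.0127).

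Mapk3, which encodes the MAP kinase ERK1, was lower in ILC3. It was at 4.40, 5.83 and 3.97 CPM in ILC3 and 29.7 and 15.4 CPM in CD4 T (log2 -2.25, edgeR adjusted p = 0.0383). Of 12 tested RAF, MEK and ERK genes, 1 was higher and 1 lower, with a median log2 of -0.59; the one higher was Araf, a RAF kinase (log2 1.499, edgeR adjusted p = 0.0455). Among 20 genes of RAS activation and adaptors, 3 were lower and 0 higher (median log2 -0.85): Rasgrp2, an exchange factor of RAP proteins (-2.004, edgeR adjusted p = 0.00725), the RAS relative Rras2 (-3.71, 0.0156) and Grb2, the adaptor that Sprouty binds (-2.64, 0.0277). Of 10 tested RAS inhibitors, 1 was higher and 2 lower (median log2 -1.96). Rasa2 was higher, at 447, 299 and 396 CPM in ILC3 and 51.8 and 63.9 CPM in CD4 T (log2 2.72, edgeR adjusted p = 0.00689). Its fellow RAS GTPase activators Rasa1 (-1.76, 0.0279) and Rasa3 (-2.16, 0.0377) were lower. Rasgrp2 and Rasa2 stayed called with each of the 5 libraries left out in turn. Grb2, Rasa3, Araf and Mapk3 lost their calls without each ILC3 library in turn and without CD4 T replicate 1 (edgeR adjusted p from 0.0668 to 0.2), Rasa1 without each ILC3 library and CD4 T replicate 2 (0.0703 to 0.0872), and Rras2 without ILC3 replicate 1 (0.0636) or CD4 T replicate 1 (0.059). Without CD4 T replicate 1 the log2 fold changes of Grb2 and Rasa3 were -1.48 and -1.27, that of Grb2 was -3.26 without CD4 T replicate 2, and that of Rras2 was -4.39 without ILC3 replicate 3. The Araf call also ended with library size alone (edgeR adjusted p = 0.162).

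In the p38 and JNK cascade 2 of 21 tested genes were higher and 2 lower, with a median log2 of -0.20. Mapk10, a JNK gene best known from neurons, was at 27.3, 6.34 and 39.1 CPM in ILC3. Its reads were absent from the CD4 T libraries, and it was called higher (edgeR adjusted p = 0.0127). Set against 3 counts over the CD4 T libraries, the ILC3 mean of 24.2 CPM was 353-fold higher. That figure leaves out the spread between ILC3 libraries, and replicate 2 at 6.34 CPM would give less. The unadjusted 95% interval of edgeR began lower, at 7.86 in log2. Gadd45g, an activator of p38 and JNK, was at 438, 264 and 256 CPM in ILC3 and 13.7 and 53.2 CPM in CD4 T (log2 3.26, edgeR adjusted p = 0.0271). The upstream kinases Map3k1 (log2 -1.37, edgeR adjusted p = 0.0339) and Map3k5 (-1.71, 0.0434) were lower. Of 9 tested kinases that MAP kinases activate, 2 were higher and 2 lower. Rps6ka3 was at 27.8, 24.9 and 27.9 CPM in ILC3 and 0.0793 and 1.41 CPM in CD4 T (log2 5.20, edgeR adjusted p = 0.0309), while Rps6ka1, of the same ribosomal S6 kinase family, was at 5.48, 1.41 and 4.21 CPM in ILC3 and 74.9 and 43.4 CPM in CD4 T (log2 -3.99, edgeR adjusted p = 0.0121). Mapkapk3 was higher by 1.51 (edgeR adjusted p = 0.0351) and Mknk2 lower, at -1.33 (0.0418). With each ILC3 library left out in turn, Gadd45g, Map3k1, Map3k5, Rps6ka3, Mapkapk3 and Mknk2 were no longer called (edgeR adjusted p from 0.0558 to 0.112), and without CD4 T replicate 1 neither were Mapk10 (0.0549), Rps6ka1 (0.0615), Map3k1, Map3k5, Mapkapk3 and Mknk2 (0.0679 to 0.187). The log2 fold changes without CD4 T replicates 1 and 2 were 2.59 and 4.55 for Gadd45g and 4.25 and 8.31 for Rps6ka3. The size for Rps6ka3 rests on few CD4 T counts, since CD4 T replicate 1 was under the level that 3 counts would give. Mapkapk3 was not called with library size alone (edgeR adjusted p = 0.124), nor Mapk10 in limma-voom (0.062).

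The list of genes that ERK signalling induces went in both directions: of 16 tested, 2 were higher and 4 lower, with a median log2 of -1.24. This list also holds the transcription factor genes Elk1, Elk3, Elk4 and Srf, none of them called. Phlda1 was higher by 2.06 (edgeR adjusted p = 0.0118) and Ier2 by 1.29 (0.0292). Ccnd1, which encodes cyclin D1, was at most 0.117 CPM in ILC3 and at 108 and 29.3 CPM in CD4 T (edgeR adjusted p = 0.00298). No fold is given for Ccnd1, because its ILC3 level rests on 2, 0 and 2 counts. The immediate early genes Egr1 (-2.15, edgeR adjusted p = 0.0182) and Ier3 (-3.95, 0.0228) were lower as well. Because Dusp1 also belongs to the genes known to respond when tissue is dissociated, 20 such genes were read beside it: 4 were higher and 5 lower, with a median log2 of 0.42 and summed levels of 5387 to 5749 CPM in ILC3 and 3140 and 4145 CPM in CD4 T. Nfkbia (1.43, edgeR adjusted p = 0.0261) and Dnaja1 (2.62, 0.0116) were higher with Ier2, and Zfp36 (-2.49, 0.0144) lower with Egr1 and Ier3. Fos was at 264 to 349 CPM in ILC3 and 538 and 337 CPM in CD4 T (log2 -0.52, edgeR adjusted p = 0.301). Fos overlapped between the groups and was named after its value was seen. The part of cell handling in the Dusp1 level was not tested. Ier2, Nfkbia and Zfp36 lost their calls without each ILC3 library in turn (edgeR adjusted p from 0.0559 to 0.0955), Egr1 without ILC3 replicate 3 (0.0605) or CD4 T replicate 1 (0.0687), and Ier3 without ILC3 replicate 2 (0.0552) or 3 (0.0618) or CD4 T replicate 1 (0.117, log2 -3.07). Without CD4 T replicate 1 the log2 fold change of Zfp36 was -1.71. Under scaling by library size, Ier2 (edgeR adjusted p = 0.182), Nfkbia (0.133) and Phlda1 (0.0504) were not called.

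**Figure D5:**
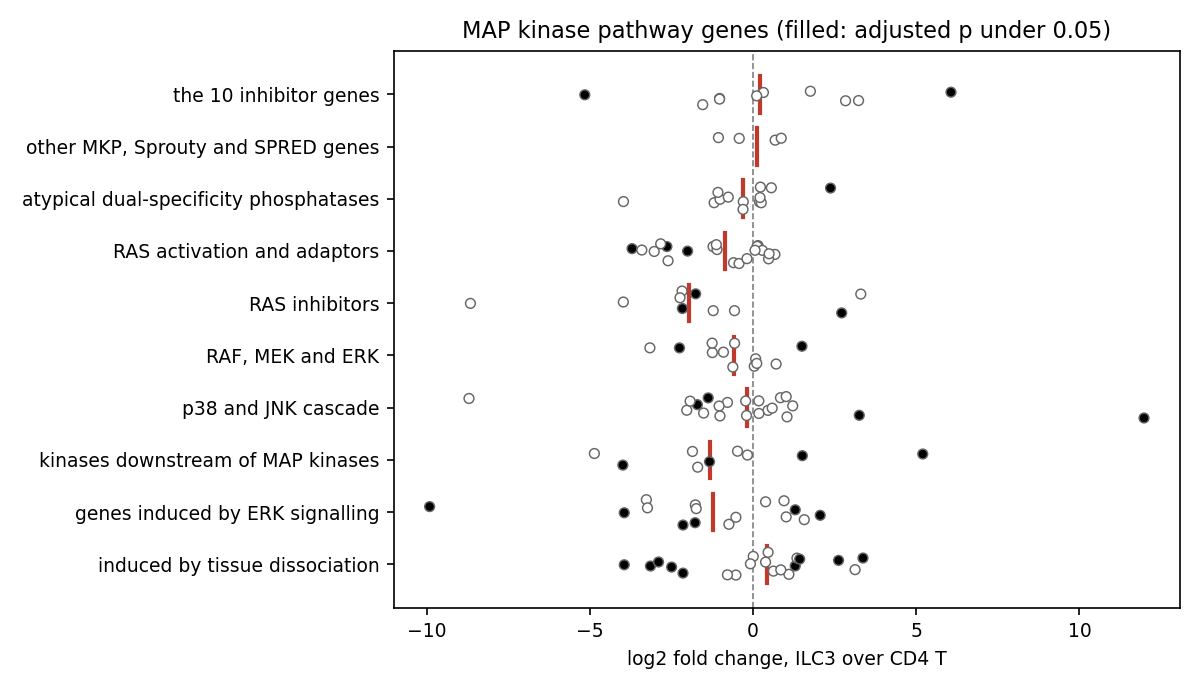
Fitted log2 fold change of ILC3 over CD4 T for each tested gene of the 10 inhibitors and 9 related lists, with filled points for an adjusted p under 0.05 and a red line at each list's median. The 10 inhibitors have a median of 0.22 with 1 call on each side, and the medians of the other lists run from -1.96 for RAS inhibitors to 0.42 for genes induced by tissue dissociation.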

How the data were processed

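The deposited table holds the authors' raw read counts per Entrez gene for 5 libraries, made from sorted cells with a low-input SMARTer kit per the labels' protocols. CASAVA 1.8.2, STAR 2.3.0 and genome build mm10 are named per the submitters' processing notes, while the counter, gene annotation and strandedness were not given in the sources used here. Of 27179 gene identifiers, 25275 matched a RefSeq symbol. The count test used edgeR 4.0.16 (R 4.3.3). Genes were filtered by expression (12747 kept), scaled by TMM, and fitted by quasi-likelihood on all 5 libraries with group as the only term, which left 3 residual degrees of freedom. CPM values are on the TMM scale. SE is the log2 fold change over the square root of F, and intervals are unadjusted. Alternatives used DESeq2 1.42.0 and limma 3.58.1. Exon lengths and coding sequences came from GENCODE M21 (GRCm38) and promoters from RefSeq (GRCm38.p6). Named genes were the 10 members, Mapk3, in each related list up to 3 called genes in each direction by p or, with none called, the 2 with the highest mean CPM, and the leading marker of each group; 1 gene that the rule names is not reported here. The members and lists were chosen with earlier results of these data known. Scripts were tested on counts simulated with the library sizes and spread of these data. At changes of 2-fold, 4-fold, 8-fold and 16-fold, the test recovered 0%, 6%, 52% and 86% of 50 genes each. These genes were drawn from those with a mean above 5 CPM. Only they were changed among 12109 genes in the simulated fit, which gave 79 calls, against 1743 calls in these data. The shares recovered may therefore differ in these data and at lower levels. False calls were 7 of 79 calls. A gene that was not called is thus not shown to be equal between the cell types. No library was a copy of another (chi-square per degree of freedom of at least 234 in every pair), which does not show that they came from separate mice; they are taken as separate samples from the labels. Limits from counts cover counting error only.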

Additional observations from a re-analysis of the deposited data

How the results depend on the processing

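Against 824 genes higher and 919 lower in ILC3, the counts were 384 and 1502 with library size alone, 1914 and 1858 with the DESeq2 Wald test, 1317 and 1402 with limma-voom, and 1250 genes were higher with no filter on low counts. With the replicate block they were 215 and 305, with 1 residual degree of freedom. The labels tie no number to a mouse, so whether same-numbered libraries came from the same mouse is not known. Their deviations from the group means had correlations of -0.039 and -0.041. With only 2 CD4 T libraries these deviations mirror each other, so the correlations cannot decide it. Leaving out each library in turn gave 269 to 1712 genes higher and 306 to 960 lower. Of the 10 genes, 1 was higher and 1 lower; 3 were higher with no filter and with DESeq2 (Dusp1, Dusp5 and Spry2), 2 with limma-voom (Dusp1 and Spry2), and 2 lower with library size alone (Dusp2 and Dusp10). With 1 library left out, 0 to 3 were higher and 0 to 1 lower. Dusp2 and Spry2 stayed called in 14 of 15 alternatives each. The sign of Dusp6 turned with library size alone (-0.22), with the replicate block (-0.091) and within a left-out range of -0.094 to 0.631. Spred2 turned with library size alone (-0.54) and ranged from -0.88 to 5.80 with a library left out, the last against a library at 0, and Cd3g ranged from -1.98 to 0.26. Of 701 values of 47 named genes, 586 kept direction and call, 90 lost the call, 19 gained it and 6 turned. The cause was not tested. The low counts of Spry1, Spred2, in ILC3 Ccnd1, and in CD4 T Spry2, Dusp5, Rps6ka3 and Mapk10 limit their sizes. A library left alone in its group is assumed to vary like the other group.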
